A study of Mus musculus with 2 samples.

Results

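The genes described here encode 10 components of the basement membrane: 7 laminin chains (Lama1, Lama3, Lama4, Lama5, Lamb1, Lamb2, Lamc1), both nidogens (Nid1, Nid2) and perlecan (Hspg2). They were chosen by name, with earlier results of these data known. Each was read by 1 probe set that carried its symbol alone, so all 10 were found among 19938 genes on the array. Lungs of mouse embryos were profiled at E13.5, when the airway tree is still branching, in a wild type group and in a group labelled Etv4;5 knockout. Etv4 and Etv5 are ETS transcription factors of the distal lung epithelium. Each group pooled equal RNA of 3 samples on 1 Affymetrix array, which gave 2 arrays and no replicates. The labels call the knockout group a knockout, a DKO and a CKO in different places. No Cre line, deleted part, strain or sex of the embryos is given in the sources used here, so whether every lung cell lost both genes is unknown.

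With 1 array per group there was no test across samples, and every difference below is between these 2 pools only. Values are on the log2 scale, read from their range because the scale was not stated. A difference is knockout minus wild type. Genes were called measured if their brighter value reached the median of its array, 7.60 in wild type and 7.58 in knockout, and 11045 genes did. The knockout pool read lower on the single Etv4 probe set (7.59 against 6.96) and on both Etv5 probe sets (11.41 against 11.17 and 11.51 against 11.28). Etv4 was below the array median in both pools and so was not called measured. The pools also differed in Xist, the RNA that silences an X chromosome in female cells, at 12.34 in wild type and 5.74 in knockout, and the part of this difference in the results below was not tested. Defining markers of lung epithelium and mesenchyme were present: Nkx2-1, Foxf1, Tbx4 and the other markers of these lists, 13 in all, were measured. In pooled whole tissue, fewer cells of a type and less RNA per cell cannot be told apart.

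Basement membranes are thin sheets of matrix that separate epithelium, endothelium and muscle from connective tissue. Laminins are heterotrimers of an alpha, a beta and a gamma chain that polymerise on the cell surface and bind integrins and dystroglycan. Nidogens bridge the laminin network to the type IV collagen network by binding the laminin gamma 1 chain, and perlecan, a heparan sulfate proteoglycan, tethers both and holds growth factors. In embryonic organs nidogen 1 is made largely by mesenchyme, and mice that lack both nidogens have defective basement membranes in the lung. In the branching lung the basement membrane underlies the epithelial buds, where it is thinned at the growing tips and thicker along the clefts and stalks.

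The nidogens stood lowest of the 10 genes in the knockout pool, and most laminin chains differed little. Nid1 differed by -0.31 and Nid2 by -0.19, followed by Lamb1 at -0.15. The other 7 genes lay between -0.071 and 0.058. In all, 9 of the 10 genes read lower and Lamb2 read higher. The median difference of the 10 was -0.0565, beside 0.00 over all measured genes, of which 47.0% read lower, 25.7% higher and 27.3% exactly equal as deposited, with no tolerance. With both arrays set to equal medians that split was 39.3% lower and 60.7% higher, and 8 of the 10 genes then read lower. At least 1.2-fold lower, the fold used here, were 1.53% of measured genes and 1 of the 10, Nid1. At least 1.2-fold higher were 1.39% of measured genes and 0 of the 10. At 1.1-fold lower stood 7.5% of measured genes and 3 of the 10 (Nid1, Nid2, Lamb1), while 0 of the 10 were 1.5-fold or 2-fold lower, beside 0.163% and 0.0362% of measured genes. Brighter genes read lower more often: of the 5725 genes at or above the 75th percentile of their array 54.3% read lower, and of the 9 genes described here that passed this limit 8 did. The 2 nidogens together made up 51.3% of the summed absolute differences of the 10 genes.

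**Figure D1:**
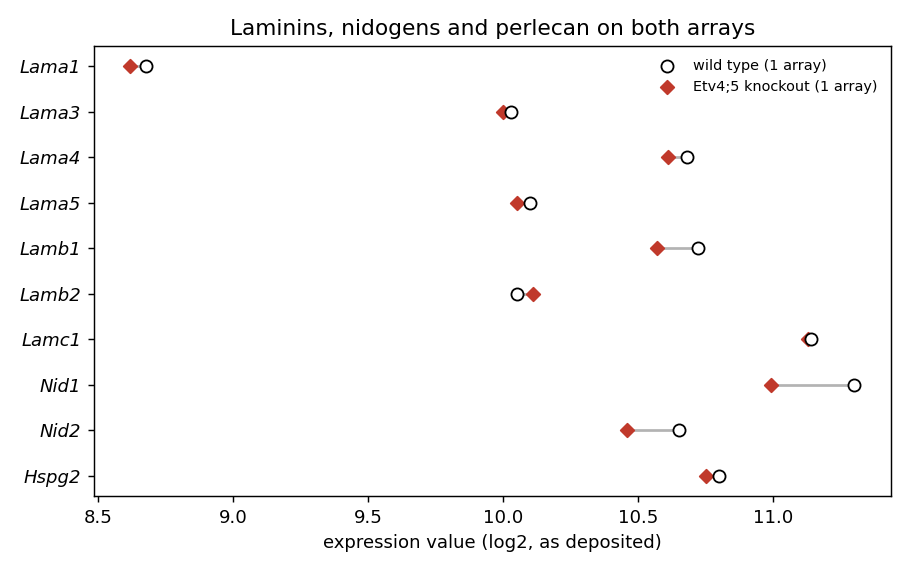
Deposited expression value (log2, horizontal axis) of each of the 10 genes on the wild type array (open circles) and the Etv4;5 knockout array (red diamonds), 1 array per group, with a grey line joining the pair. The widest gaps are those of Nid1 (11.30 and 10.99), Nid2 (10.65 and 10.46) and Lamb1 (10.72 and 10.57). Levels of different genes come from different probes and are not comparable.

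A rough scale of disagreement between probes was taken from 618 measured genes that had 2 probe sets each. The gap between the differences shown by the probe sets of 1 gene had a median of 0.04 and a 90th percentile of 0.18. These gaps cover disagreement between probes on the same arrays, not variation between embryos or pools. The dimmer probe set of a gene did not have to pass the level limit, and the 618 genes were not matched in level to the 10. Each gap also lies between 2 differences, so it is not the reading error of 1 difference. A gap at least as large as the difference of Nid1 was seen in 11 of the 618 genes (1.78%), and for Nid2 in 58 (9.39%). For Lamb1 the count was 100 (16.2%). For the other 7 genes at least 33.7% of the gaps were as large, so their differences were within what 2 probe sets of 1 gene commonly showed.

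Nid1, which encodes nidogen 1 (entactin), the main bridge between laminin and type IV collagen, read 11.30 in the wild type pool and 10.99 in the knockout pool. The difference of -0.31 corresponds to 1.24-fold lower. Of all 11045 measured genes 96 (0.869%) read at least as low relative to wild type. Bright genes varied less than dim ones on these arrays, so the same count was taken among genes of a similar level. Of 1280 genes whose mean lay within 0.5 of that of Nid1, 4 (0.312%) including Nid1 had a difference at least as low. By these shares Nid1 ranked nearer the low end among genes of a similar level than among all measured genes.

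Nid2, the second nidogen, which can stand in for the first in much of the body, read 10.65 in the wild type pool and 10.46 in the knockout pool. Its difference of -0.19 corresponds to 1.14-fold lower. Of 2144 genes of a similar level, 55 (2.57%) read at least as low. Both nidogens thus read lower in the knockout pool, and the difference of Nid1 was the larger in size by 0.13. This gap between them is smaller than the 90th percentile of gaps between probe sets of 1 gene.

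**Figure D2:**
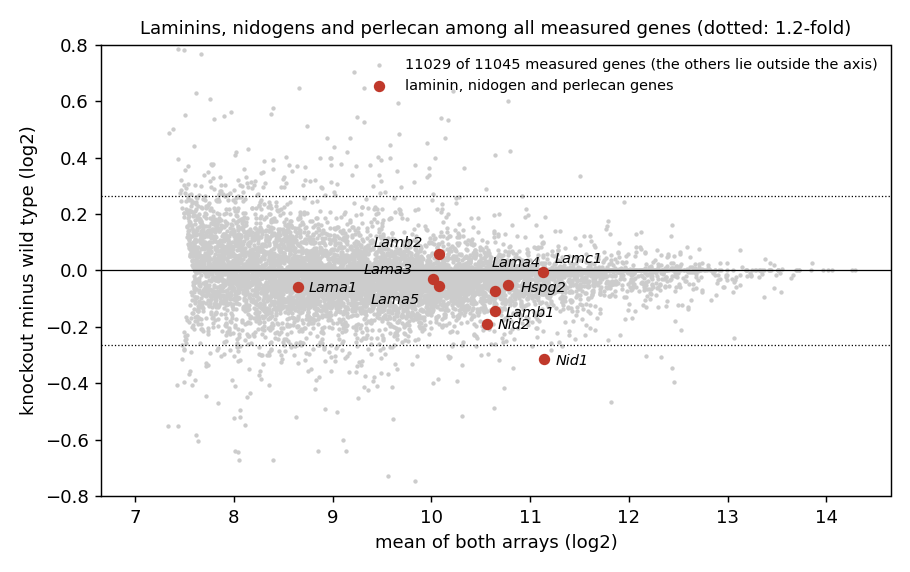
Difference between the arrays (knockout minus wild type, log2, vertical axis) against the mean of both arrays (log2, horizontal axis) for measured genes (grey) and the 10 basement membrane genes (red). Dotted lines mark 1.2-fold. Nid1 (-0.31) is the only red point past a dotted line, and the grey cloud narrows towards bright genes.

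Hspg2, which encodes perlecan, read 10.80 in the wild type pool and 10.75 in the knockout pool, a difference of -0.052. Of 1792 genes of a similar level 27.5% read at least as low. Perlecan thus differed by less than the nidogens, with which it shares binding partners. The difference of Nid1 was 0.26 further below 0 than that of Hspg2.

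The laminin alpha chains carry the cell-binding domains and give each trimer its tissue identity. The 4 among the 10 genes all read slightly lower in the knockout pool, while Lama2, a further alpha chain, differed by -0.27. Lama1, the alpha chain of early epithelial basement membranes, read 8.68 in the wild type pool and 8.62 in the knockout pool (-0.059). Lama5, the alpha chain that becomes widespread in lung epithelial basement membrane, was at 10.10 and 10.05 (-0.054). These epithelial chains differed by nearly the same amount, and each was 1.04-fold lower.

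Lama4, an alpha chain of blood vessel basement membranes, read 10.68 in the wild type pool and 10.61 in the knockout pool (-0.071). Lama3, the alpha chain of the epithelial laminin that anchors cells through hemidesmosomes, was at 10.03 and 9.996 (-0.031). The 4 alpha chains among the 10 genes therefore lay within a narrow range, with a median of -0.0565. At least 1.2-fold lower were 0 of the 4, beside 1.53% of measured genes. With quantile normalization the difference of Lama3 was 0.00.

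The beta chains differed in sign, but the difference of Lamb2 was small. Lamb1, the beta chain of most embryonic laminins, read 10.72 in the wild type pool and 10.57 in the knockout pool, a difference of -0.15 or 1.11-fold. Of 2007 genes of a similar level 108 (5.38%) read at least as low. Lamb2, the beta chain typical of more mature, vascular, kidney and synaptic basement membranes, read 10.05 in the wild type pool and 10.11 in the knockout pool, a difference of 0.058. Of 2782 genes of a similar level 189 (6.79%) read at least as high. However, 39.3% of the gaps between probe sets of 1 gene were at least as large as the difference of Lamb2. The difference of Lamb1 was thus 0.20 below that of Lamb2, which exceeds the 90th percentile of gaps between probe sets of 1 gene. Lamb2 read higher under each of the 3 other scalings as well, between 0.058 and 0.0844 over all settings.

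Lamc1, the gamma chain shared by most laminins and the one to which nidogens bind, was nearly equal on both arrays, with 11.14 in the wild type pool and 11.13 in the knockout pool. Its difference of -0.0067 turned positive under each of 3 other scalings, up to 0.0211, so it carries no direction. In their differences Nid1 lay 0.31 and Nid2 0.18 below this chain, and the gap for Nid2 is about the 90th percentile of gaps between probe sets of 1 gene.

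Further laminin chains on the array did not follow one direction. Lama2, the alpha chain of muscle and peripheral nerve basement membrane, read 8.99 in the wild type pool and 8.73 in the knockout pool. Its difference of -0.27 was at the 1.2-fold limit and lay between -0.265 and -0.2413 over the 4 scalings, inside the limit under the other 3. Lamb3, which pairs with Lama3 in the hemidesmosomal laminin, was at 8.50 and 8.67, a difference of 0.17, beside -0.031 for Lama3. Lamc3 was at 7.69 and 7.73, a difference of 0.038 close to the array medians.

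Promoter sequence was examined because Etv4 and Etv5 bind DNA with the ETS core GGAA, and AGGAAG is the form known as the PEA3 site. RefSeq promoters of GRCm38.p6, from 250 bases before to 50 bases after the start, were matched for 5 of the 10 genes (Hspg2, Lama5, Lamb1, Lamb2, Nid1). On both strands, AGGAAG was found in 2 of the 5, Nid1 and Lamb2, against 35.4% of all 32851 promoters of that length. The longer form CCGGAAG was found in 0 of the 5 and in 8.86% of all promoters. The core GGAA, which lies within both longer forms, was found in all 5 and in 96.0% of all promoters. Nid1 held 7 matches to GGAA, and 8.02% of all promoters held at least as many. The other 4 held 2 to 4. The 2 promoters with AGGAAG are shown because their genes had the lowest and the highest difference of the 10. The 250 bases before the start are printed, for Nid1 on the plus strand of chr13:13437352-13437601 and for Lamb2 on the plus strand of chr9:108479612-108479861, both 5′ flanking sequence in the RefSeq annotation. Capitals mark AGGAAG, read here on the opposite strand.
Nid1: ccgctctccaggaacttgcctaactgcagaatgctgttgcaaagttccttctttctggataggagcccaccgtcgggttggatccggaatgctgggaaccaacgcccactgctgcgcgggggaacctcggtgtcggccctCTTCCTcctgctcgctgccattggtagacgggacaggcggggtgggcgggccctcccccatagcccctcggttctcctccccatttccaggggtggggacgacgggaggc
Lamb2: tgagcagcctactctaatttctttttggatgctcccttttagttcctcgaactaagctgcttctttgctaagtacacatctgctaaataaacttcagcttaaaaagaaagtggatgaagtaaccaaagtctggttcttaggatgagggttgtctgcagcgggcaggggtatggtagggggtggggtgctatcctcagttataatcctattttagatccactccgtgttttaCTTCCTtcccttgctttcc
The match begins 110 bases before the start of Nid1 and 19 bases before that of Lamb2. A match of letters is a description and not a site of binding, and its part in the differences was not tested.

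Other basement membrane genes, from a list of 34 with collagens, fibulins and Fraser complex proteins, went both ways. Of 26 measured members 14 read higher, 9 lower and 3 equal, beside 25.7%, 47.0% and 27.3% of all measured genes. Their median difference was 0.0155. That median was 0.0014 with no level filter, 0.0028 with the filter at the 75th percentile and 0.0282 with quantile normalization, so it stayed close to 0. With equal medians 19 of 27 measured members read higher, beside 60.7% of all measured genes. Egfl6, which encodes a secreted matrix protein with EGF repeats, read 9.37 in the wild type pool and 9.96 in the knockout pool (0.59). Tinag, a basement membrane antigen best known from kidney tubules, differed by 0.35 and Fras1, which anchors epithelium to underlying mesenchyme, by 0.26. Ntn1, which encodes the laminin-related secreted protein netrin 1, differed by -0.37. Past 1.2-fold there were 2 higher members (Egfl6, Tinag) and 1 lower (Ntn1) of the 26, beside 1.39% and 1.53% of all measured genes. Fras1 lay just inside the limit, which it passed under the other 3 scalings. The chief type IV collagen genes, named here for their role, differed little: Col4a1 by -0.049, and Col4a2 was listed at the same value on both arrays.

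Laminin receptor genes had 6 of 15 measured members higher and 8 lower, beside 25.7% and 47.0% of all measured genes. At least 1.2-fold lower or higher were 0 of the 15, beside 1.53% and 1.39% of all measured genes. Their median was -0.0044. The median was above 0 with equal medians (0.013) and quantile normalization (0.0057), so it carries no direction. The largest differences were those of Sdc2, a heparan sulfate syndecan (-0.20), the integrin alpha chain genes Itga9 (-0.16) and Itga1 (-0.13), and Itga2 (-0.12). The main laminin-binding integrin genes of epithelium, named for their role, were nearly level: Itga3 differed by -0.046, Itga6 by -0.033 and their partner Itgb1 by -0.0044. Dag1, which encodes dystroglycan and is also named for its role, differed by 0.014.

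Genes that glycosylate, sulfate or fold matrix proteins read lower in 13 of 17 measured members and higher in 2. Of all measured genes 47.0% read lower and 25.7% higher. The 17 had a median of -0.0592 and 0 past 1.2-fold, beside 1.53% of all measured genes lower and 1.39% higher past that limit. Plod2, a collagen lysyl hydroxylase, differed by -0.20, Sulf2, an enzyme that trims heparan sulfate, by -0.20, and Ext1, which builds heparan sulfate, by -0.14. Under the other 3 scalings 11 or 12 of the 17 read lower, beside 37.2% to 44.1% of all measured genes. Matrix proteases and their inhibitors had a median of 0.00, with 3 of 16 measured members higher, 7 lower and 6 equal. Under the other 3 scalings 9 to 11 read higher, beside 55.9% to 62.6% of all measured genes. Htra1, a secreted serine protease, differed by 0.21 and Adamts5, which cleaves matrix proteoglycans, by -0.17.

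**Figure D3:**
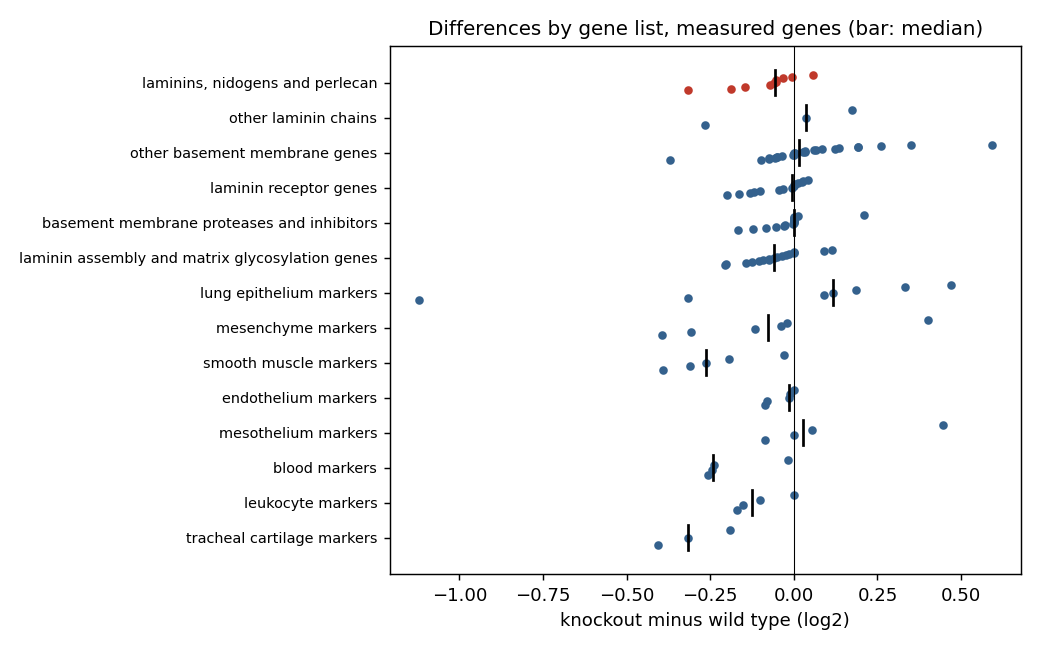
Differences between the arrays (knockout minus wild type, log2, horizontal axis) for measured genes of each list, 1 point per gene, with the list median as a black bar. The 10 laminin, nidogen and perlecan genes (red) have a median of -0.0565, other basement membrane genes 0.0155 and smooth muscle markers -0.2618.

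Markers of the cell types that make or border the basement membrane differed to unlike degrees between the same pools. Of all measured genes 47.0% read lower and 25.7% higher. Of 5 smooth muscle markers 5 read lower (median -0.26), and their mean log2 level was 10.80 in wild type and 10.56 in knockout. Of 6 mesenchyme markers 5 read lower and 1 higher (median -0.077), with a mean level of 11.18 and 11.10. They did not move together: Fgf10 differed by 0.40, Foxf1 by -0.40, Wnt2 by -0.31 and Pdgfra by -0.11, while Tbx4 was nearly level (-0.021). Of 7 lung epithelium markers 5 read higher and 2 lower (median 0.12), and their mean level was 10.61 and 10.58. Sftpc differed by -1.12 and Sox9 by -0.32, while Krt18 differed by 0.47 and Krt8 by 0.33. The 5 endothelium markers had 4 lower and 1 equal values (median -0.0157, mean level 10.84 and 10.80), and the median was 0.0017 with equal medians. Lama4, the vascular chain, differed by -0.071 beside them.

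Markers of blood, leukocytes, tracheal cartilage and mesothelium were read as well. Beside 47.0% of all measured genes, 4 of 4 measured blood markers read lower (3 under quantile normalization). Their median was -0.24 and their mean level 10.69 and 10.50. Of 4 measured leukocyte markers 3 read lower (median -0.13, mean level over 5 matched 8.30 and 8.20). Of the tracheal cartilage markers Sox9, shared with the epithelium list, differed by -0.32 and Col2a1 by -0.19. Cnmd (7.78 and 7.37) passed the level limit only through its wild type value, and Acan and Matn1 were not measured. The mean level over the 5 matched cartilage markers was 7.77 and 7.60. Mesothelium markers had a median of 0.028 with 2 of 4 measured higher (mean level over 5 matched 8.70 and 8.80). Of these, Krt19 differed by 0.45, Upk3b by -0.086 and Lrrn4 by 0.056, and Wt1 was equal. The part of these cell type differences in the lower values of Nid1, Nid2 and Lamb1 was not tested, and no member of a marker list was among the 10 genes.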

How the data were processed

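RNA was prepared with a column kit and labelled with biotin, per the labels' protocols. The authors' deposited values (35557 probe sets, 2.72 to 14.4 in wild type and 2.69 to 14.4 in knockout) were taken here as log2 values. Log base, summary method and normalization are not given in the sources used here. The platform annotation gave 1 gene symbol to 21789 probe sets. A gene took its probe set with the highest mean. Values were used as deposited. With 1 array per group no p-value, SD or replicate error was computed, and the number of arrays limits the precision. Counts use 1.2-fold. Alternatives were equal medians, quantile and loess (span 0.3) scaling, the mean over probe sets, no level filter or one at the 75th percentile, and folds of 1.1, 1.5 and 2. Named were the 10 genes, further laminin chains and up to 4 measured genes per list with the largest difference. Genes named for their role, and Nkx2-1 and Tbx4 as tissue markers, fall outside this rule, and some lists give fewer. The members and lists were chosen with earlier results of these data known, and the level window of 0.5 and the promoter motifs after the values were seen. The steps were checked on simulated data. Tools were numpy 2.4.6 and pandas 2.3.3 under Python 3.11.15, with statsmodels 0.14.6 for loess and matplotlib 3.10.9 for figures.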

Additional observations from a re-analysis of the deposited data

How the results depend on the processing

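The count of 1 gene at least 1.2-fold lower (Nid1) was 3 at 1.1-fold (Nid1, Nid2, Lamb1; 7.5% of measured genes), 0 at 1.5-fold and 0 at 2-fold, which follows from the threshold; it was 1 under each of the other 3 scalings. The mean of probe sets and the level filters could not change it, since each gene has 1 probe set and Nid1 is bright. Over the scalings, Nid1 lay between -0.3149 and -0.2945, Nid2 between -0.1883 and -0.1592 and Lamb1 between -0.1454 and -0.1186. The count of genes with a lower value was 9 as deposited, 8 with equal medians, loess or the 75th percentile filter (which drops Lama1) and 7 with quantile normalization. Their median was -0.0565 and lay between -0.0565 and -0.0345. Leaving out both nidogens, chosen after seeing the data, gave -0.0533 with 7 of 8 lower. The scalings moved the median of measured genes by 0.0174, 0.015 and 0.007, so the smaller laminin differences are of the size of the choice of scaling. With the 75th percentile filter no further laminin chain was left, so that median has no value. No array could be left out. No paired analysis was possible because each group has 1 array.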
